A study of Mus musculus with 10 samples.

Results

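The genes examined were 10 members of a family and pathway of ADP-ribosylation, Parp1, Parp2, Parp3, Parp8, Parp9, Parp10, Parp11, Parp12, Parp14 and Dtx3l, out of 24538 genes in the count tables. They were taken by gene symbol, and no expression value entered that rule, but the members were chosen with earlier results of these data known. Of the 10, 6 are linked to interferon (Parp9, Parp10, Parp11, Parp12, Parp14 and Dtx3l), 3 act in DNA repair (Parp1, Parp2 and Parp3), and Parp8 was placed in neither class. Their RNA was compared between metastasis-associated macrophages (MAMs, n = 5 libraries) and resident alveolar macrophages (RAMs, n = 5 libraries) of wild-type C57BL6/J mice, labelled 8 to 10 weeks old. MAMs were CD11B+CD11C- cells from lung metastases, which E0771-LG cells, a mouse mammary tumor line, had formed after injection into the tail vein of females at 6 to 8 weeks of age. RAMs were CD11B-CD11C+ cells from normal lungs. Both were sorted as CD45+, F4/80+, LY6C-, MRC1+ cells of high forward scatter, and both digests contained the transcription inhibitors alpha-amanitin and actinomycin D. Each metastasis sample pooled nodules from 2 to 4 mice according to the labels. The groups differ in the tumor, in the surface markers and in the kind of macrophage at once, and these cannot be told apart. In such bulk samples a higher level can come from more cells that express a gene or from more RNA per cell.

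ADP-ribosyltransferases move ADP-ribose from NAD+ onto proteins or nucleic acids. PARP1 and PARP2 build long chains of it at broken DNA, where the chains gather repair factors, and PARP3 acts at double-strand breaks. Most other members attach a single unit or none, and several of them are among the genes that cells switch on in response to interferon. In macrophages the macrodomain protein PARP14 is known as a cofactor of STAT6, and PARP9 as the partner of the ubiquitin ligase DTX3L.

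All 6 interferon-linked genes were higher in MAMs, each by a fold change over 2 with an adjusted p under 0.05, and their MAM and RAM libraries did not overlap. Of the 3 DNA repair genes 0 passed the edgeR test, 0 had an unadjusted p under 0.05, and 0 passed with DESeq2 or limma. All 10 were among the 11571 genes tested, of which 56.2% were called in either direction, 28.9% were called higher in MAMs, and 15.3% were called higher by more than 2-fold. The libraries did not overlap for 44.9% of these genes, and for 23.7% they did not overlap with MAMs higher. The median log2 fold change was 2.12 for the interferon-linked genes and 0.070 for Parp1 to Parp3, against -0.015 for all genes tested. Parp8 was lower in MAMs, a call shared by 27.3% of genes. Counts of the members per library ran from 619 for Parp11 in a RAM library to 73418 for Parp14 in a MAM library. Levels are given below as CPM, the count of a gene scaled to the library total with edgeR's TMM factors. Differences are log2 fold changes of MAMs over RAMs from the quasi-likelihood test of edgeR, with p-values adjusted over the 11571 genes by the Benjamini-Hochberg method.

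**Figure D1:**
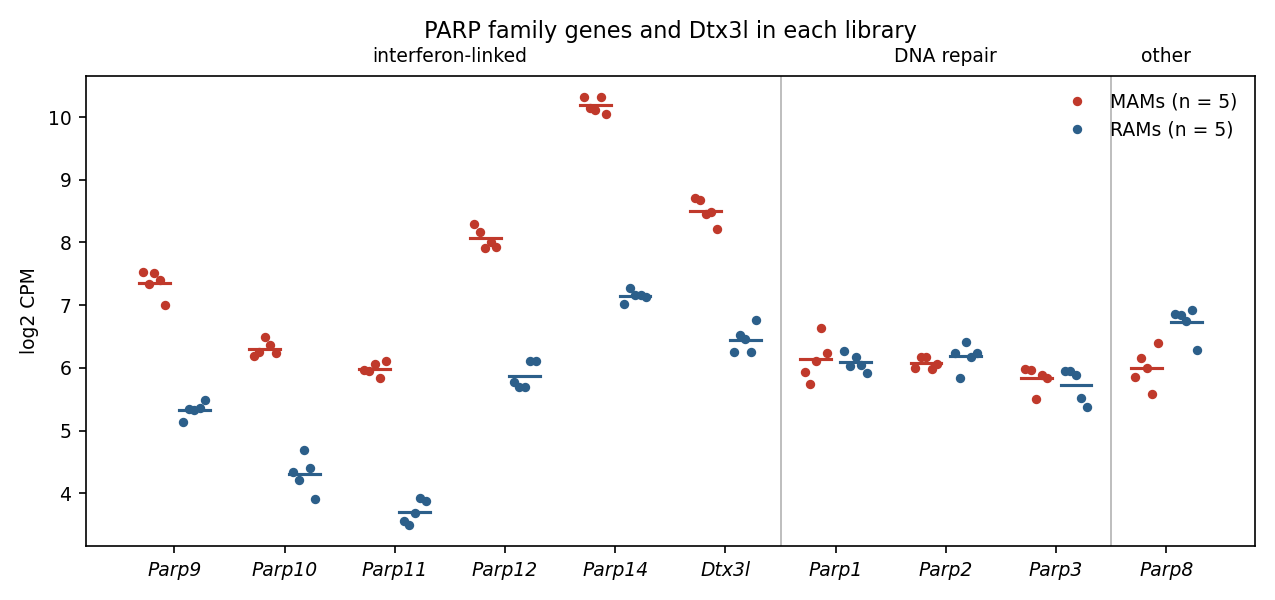
Log2 CPM of the 10 genes (vertical axis) in each of the 5 MAM libraries (red) and 5 RAM libraries (blue), with a bar at each group's mean. MAM and RAM points are apart for all 6 interferon-linked genes and intermingle for Parp1, Parp2 and Parp3.

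The summed marker levels followed the sorting labels, with an exception in Marco. The summed CPM of 5 macrophage markers was 21026 to 27590 in MAMs and 29852 to 36972 in RAMs. Lyz2 made up most of this sum, with means of 20655 CPM in MAMs and 29172 CPM in RAMs. Gene by gene, 3 of the 5 were called higher in MAMs and 2 lower, beside 28.9% and 27.3% of all genes. Their median log2 fold change was 0.37. The summed CPM of 7 alveolar macrophage markers ran from 405 to 787 in MAMs against 9769 to 12408 in RAMs, where Chil3 made up most of it. Marco, 1 of these 7 genes, was not called (adjusted p = 0.0762, edgeR), and its 389 and 320 CPM in MAM replicates 1 and 2 lay within the RAM range of 284 to 531. For 4 markers of CD11B+ macrophages and monocytes the sums were 6219 to 7357 and 74.2 to 83.5. Markers of T, B and NK cells summed to at most 15.3 CPM in any library and those of neutrophils to at most 17.9 CPM, with Ly6g at 0 counts in all RAM libraries. The 5 fibroblast and endothelial markers reached sums of 20.4 to 46.7 CPM in MAMs against 1.80 to 10.1 in RAMs, the most abundant being Pecam1. The 4 lung epithelial markers, led by Sftpc, reached 0.915 to 12.7 and 22.6 to 40.1. The sum of 5 markers of epithelial or tumor cells was higher in RAMs (589 to 702 CPM, mostly Krt19) than in MAMs (9.84 to 23.6). Krt8 went the other way, with 34 to 148 counts in the MAM libraries and 0 to 12 in the RAM libraries, and Krt18 had 435 counts in MAM replicate 1 and at most 21 in any other library. The cells that the markers of other cell types came from, and their part in the results, were not tested. Per library, 50746305 to 87523247 reads were counted on genes.

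Parp14, which encodes a mono-ADP-ribosyltransferase with macrodomains, had the largest log2 fold change of the 10. The 5 MAM libraries held 1275, 1136, 1106, 1277 and 1055 CPM in the order of their replicate numbers. The 5 RAM libraries held 130, 155, 142, 143 and 140 CPM. The lowest MAM library was therefore far above the highest RAM library, with a coefficient of variation of 8.66% in MAMs and 6.26% in RAMs. On the log2 scale the difference was 3.04 with a standard error of 0.0802 (adjusted p = 1.5e-13, edgeR), or 8.23-fold with a 95% interval of 7.31 to 9.27. The gene occupies bases 35832874 to 35871544 of chromosome 16 (GRCm38, minus strand) and shares 110 exon bases with the GENCODE model Gm49730.

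Dtx3l and Parp9, the E3 ubiquitin ligase and its macrodomain partner, had log2 fold changes close to each other. Dtx3l was at 418, 409, 352, 359 and 296 CPM in the MAM libraries. In the RAM libraries it was at 76.5, 91.6, 88.0, 76.3 and 109 CPM. The groups did not overlap, and MAM replicate 5 was the lowest of the MAMs for this gene. Parp9 was at 184, 162, 182, 170 and 128 CPM in MAMs. In RAMs it was at 35.1, 40.4, 40.3, 41.1 and 44.9 CPM, again with MAM replicate 5 the lowest MAM library and no overlap. The log2 fold changes were 2.06 for Dtx3l (standard error 0.118, adjusted p = 8.8e-10, edgeR) and 2.03 for Parp9 (standard error 0.110, adjusted p = 4.7e-10, edgeR).

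The genes of Dtx3l and Parp9 are neighbors that start head to head. Dtx3l lies on chromosome 16 from 35926511 to 35939151 on the minus strand, and Parp9 from 35938470 to 35972605 on the plus strand, so their GENCODE spans share 682 bases. Their exons share 458 bases across GENCODE transcripts. Whether the authors counted by strand is not given in the sources used here. Reads from that stretch may stand under either gene or among those set apart as ambiguous in counting. The ambiguous reads were 0.439% to 0.530% of the total per library and were left out here. The overlap in the UCSC RefGene models used for counting was not examined. Parp14 starts 54966 bases from the end of Dtx3l in the same region.

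The number of Dtx3l counts per Parp9 count was compared within each library. It was 2.23 over the MAM libraries and 2.19 over the RAM libraries, with mean log2 ratios of 1.15 ± 0.145 and 1.12 ± 0.142 (SD, n = 5 each). The difference of 0.032 was within the spread of the libraries, with a 95% interval of -0.18 to 0.25 (exact permutation test, two-sided, p = 0.714, adjusted p = 0.714 over 3 pairs). Its sign changed without MAM replicate 2 or without RAM replicate 4, over a range of -0.025 to 0.082. Parp14 rose more than Parp9. The log2 ratio of Parp14 to Parp9 had a mean of 2.83 ± 0.161 in MAMs against 1.82 ± 0.115 in RAMs (SD, n = 5 each). The groups did not overlap, and the difference was 1.01 with a 95% interval of 0.81 to 1.22 (two-sided exact permutation test, p = 0.00794, adjusted p = 0.0238 over 3 pairs). With 5 libraries against 5, an exact permutation test cannot give a p below 0.00794. With libraries matched by replicate number, a sign-flip permutation test of the same difference gave p = 0.0625, the smallest it can give with 5 pairs.

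**Figure D2:**
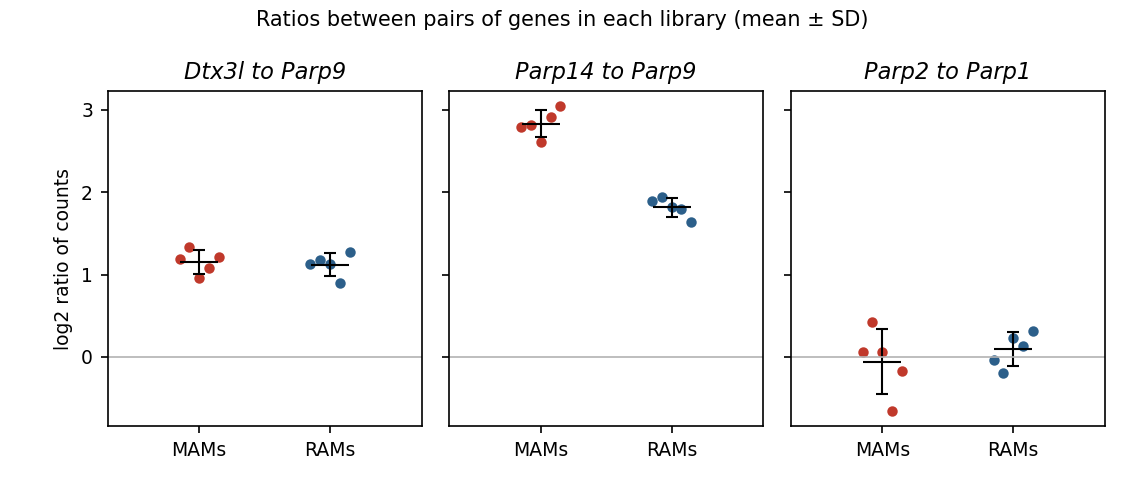
Log2 ratio of the counts of a pair of genes (vertical axis) in each MAM library (red) and RAM library (blue), with the mean and SD of 5 libraries in black. Parp14 to Parp9 is 1.01 higher in MAMs with no overlap, while the groups overlap for Dtx3l to Parp9 and for Parp2 to Parp1.

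Parp12, Parp11 and Parp10 encode enzymes that attach single ADP-ribose units. Parp12, which has CCCH zinc fingers and is known for restricting viruses, was next to Parp14 in mean FPKM in MAMs. Its MAM libraries held 314, 288, 242, 258 and 244 CPM and its RAM libraries 54.5, 51.7, 51.7, 69.1 and 69.1 CPM. The groups were apart, and RAM replicates 4 and 5 were the highest of the RAMs. The difference was 2.18 on the log2 scale, with a standard error of 0.114 (adjusted p = 3.1e-10, edgeR), and 2.36 with limma on log2(FPKM + 0.1). Parp11, whose product sits at the nuclear envelope, had 62.8, 61.9, 66.7, 57.4 and 68.6 CPM in MAMs. It was at 11.8, 11.2, 12.8, 15.1 and 14.6 CPM in RAMs, and the groups did not overlap. It had the second largest log2 fold change, 2.28 (standard error 0.125, adjusted p = 5.4e-10, edgeR), a 4.85-fold difference. Parp10 was at 72.5, 76.6, 89.5, 82.4 and 75.6 CPM in MAMs and at 20.1, 18.4, 25.7, 21.2 and 15.0 CPM in RAMs. These groups were apart as well, by 1.98 on the log2 scale with a standard error of 0.138 (adjusted p = 8.7e-09, edgeR). In GENCODE the gene overlaps Plec on the same strand, sharing 205 exon bases. Whether the UCSC RefGene models used for counting hold this overlap was not examined, so its effect on the Parp10 count is not known. Apart from Parp14, the 5 interferon-linked genes thus lay between 1.98 and 2.28 on the log2 scale, and their standard errors were 0.110 to 0.138.

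Sequence before the start sites is shown for genes of both classes, because members of the interferon-linked class moved together. RefSeq promoter windows on GRCm38.p6, from 250 bases before to 50 bases after a start site, were matched for 7 of the 10 members by symbol, not for Parp9, Parp10 and Parp14. They were searched on both strands for the core of the interferon-stimulated response element, GAAANNGAAA or its reverse complement TTTCNNTTTC. The core was found in the window of 1 member, Parp11, beside 3.99% of 27025 genes and 3.44% of all 32851 windows. It reads TTTCGATTTC on the strand of the gene, the reverse complement form, and starts 44 bases before the start site. A gamma-activated site, TTCNNNGAA, which reads the same on both strands, starts 37 bases before the same start site as TTCTTGGAA and overlaps the last bases of the core. That motif was found in 8.30% of windows, or 9.55% of genes, and in no other member. Dtx3l and Parp12, the other interferon-linked members with a window, held neither motif. A further window at a later Parp11 start held neither motif. Among the rest of the family, the core was also in the window of Parp4 and the gamma-activated site in that of Parp16, and both genes were lower in MAMs (-0.68 and -2.06 on the log2 scale). Below, the 120 bases before the start site are written 5′ to 3′ on the strand of the gene with the response element core in capitals, for Parp11 (plus strand, chr6:127446720-127446839), Parp12 (minus strand, chr6:39118350-39118469), Parp1 (plus strand, chr1:180568771-180568890) and Parp3 (minus strand, chr9:106476950-106477069).
Parp11: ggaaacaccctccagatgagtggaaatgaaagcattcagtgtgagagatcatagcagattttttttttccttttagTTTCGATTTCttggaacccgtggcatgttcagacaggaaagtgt
Parp12: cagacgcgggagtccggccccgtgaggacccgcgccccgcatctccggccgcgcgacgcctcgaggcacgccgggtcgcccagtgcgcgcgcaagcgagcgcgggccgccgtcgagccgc
Parp1: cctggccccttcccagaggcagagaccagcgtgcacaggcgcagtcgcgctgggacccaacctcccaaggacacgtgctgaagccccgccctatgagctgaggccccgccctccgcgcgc
Parp3: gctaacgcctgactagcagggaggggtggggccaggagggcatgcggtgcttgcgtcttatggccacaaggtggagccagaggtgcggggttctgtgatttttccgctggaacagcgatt
Parp12, Parp1 and Parp3 have no match in these windows. In Parp12, 73.6% of the 250 bases before its start are G or C, against 40.4% for Parp11. The absence of these letters in a window says nothing on the factors that act there.

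Parp1 to Parp3 differed by less than the spread between libraries. Parp1, the main sensor of DNA breaks, was at 61.4, 53.6, 69.2, 98.9 and 75.4 CPM in MAMs. In RAMs it was at 77.4, 65.5, 72.5, 65.7 and 60.6 CPM. The RAM range lay inside the MAM range, and the spread was wider in MAMs (coefficient of variation 24.1%) than in RAMs (9.69%), with MAM replicate 4 the highest of all 10 libraries. The log2 fold change of Parp1 was 0.070 (adjusted p = 0.705, edgeR). Its 95% interval of -0.24 to 0.38 spans 0.847 to 1.30 of the RAM level. The value was -0.22 (adjusted p = 0.212, edgeR) over replicates 1 to 3 alone and 0.46 (adjusted p = 0.0878, edgeR) over replicates 4 and 5 alone, a division chosen after seeing the data because the deposited FPKM table lists the libraries in those blocks.

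Parp2, which shares tasks with Parp1, was at 63.9, 71.9, 72.1, 62.8 and 66.8 CPM in MAMs and at 75.5, 57.4, 85.1, 72.1 and 75.6 CPM in RAMs. The lowest and the highest library were both RAMs. Its log2 fold change was -0.12 (95% interval -0.35 to 0.11, adjusted p = 0.383, edgeR). With upper-quartile scaling, which moved the median of all genes to -0.18, it was -0.28 and passed the threshold (adjusted p = 0.0365, edgeR). Parp3 ran from 45.2 to 63.2 CPM in MAMs, lowest in replicate 3, and from 41.4 to 61.5 CPM in RAMs, lowest in replicates 5 and 4. The log2 fold change of Parp3 was 0.090 (95% interval -0.20 to 0.38, adjusted p = 0.60, edgeR). As with Parp1, the replicate blocks differed in sign. The value was -0.095 over replicates 1 to 3 alone (adjusted p = 0.637, edgeR) and 0.41 over replicates 4 and 5 alone (adjusted p = 0.125, edgeR). The ratio of Parp2 to Parp1 did not pass the test either, at a difference of -0.15 with a 95% interval of -0.61 to 0.26 (exact permutation test, two-sided, p = 0.508, adjusted p = 0.714 over 3 pairs).

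The classes were also compared within each library, as a description without a test. The mean log2 CPM of the 6 interferon-linked genes exceeded that of Parp1 to Parp3 by 1.86, 1.80, 1.83, 1.58 and 1.54 in the MAM libraries. In the RAM libraries it was below it, with differences of -0.81, -0.52, -0.66, -0.37 and -0.30. CPM are not scaled by length, so the sign within a group means nothing by itself, but the lowest MAM difference was above the highest RAM difference. The mean of the interferon-linked class went from 5.47 ± 0.0846 in RAMs to 7.73 ± 0.0896 in MAMs (SD, n = 5 each), while the repair class stood at 6.00 ± 0.146 and 6.01 ± 0.0931 (SD, n = 5 each). The difference between the class medians of the log2 fold change was 2.05, with 2.40 over replicates 1 to 3 and 1.56 over replicates 4 and 5.

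**Figure D3:**
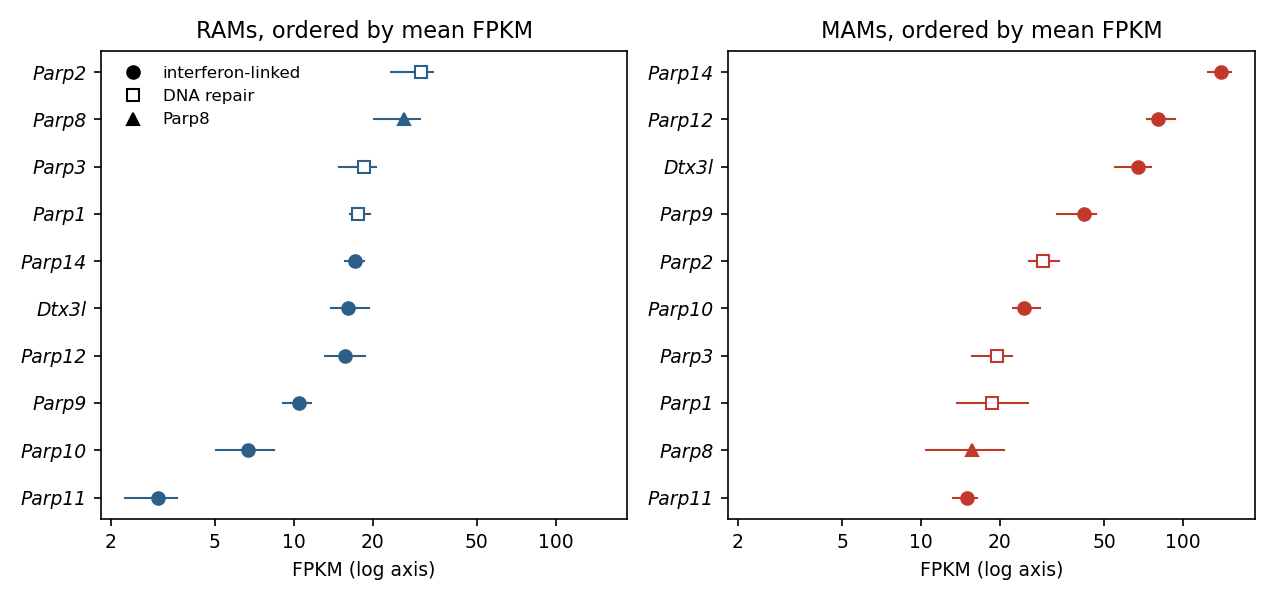
Mean FPKM (points, log axis) and the range over 5 libraries (lines) of the 10 genes, ordered by mean in RAMs (left) and in MAMs (right). In RAMs Parp2, Parp8, Parp3 and Parp1 lead, and in MAMs Parp14, Parp12, Dtx3l and Parp9 do.

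Levels of different genes were set side by side in FPKM, which the authors scaled by transcript length. In RAMs the order of mean FPKM was Parp2 (30.7), Parp8 (26.3), Parp3 (18.6), Parp1 (17.7), Parp14 (17.1), Dtx3l (16.2), Parp12 (15.6), Parp9 (10.5), Parp10 (6.70) and Parp11 (3.02). Each of the first 7 overlapped its neighbor in range, whereas Parp12 and Parp9, Parp9 and Parp10, and Parp10 and Parp11 were apart. Every repair gene thus had a higher mean than every interferon-linked gene in RAMs, although Parp1 and Parp3 each overlapped Parp14, Dtx3l and Parp12 in range. In MAMs the order was Parp14 (140), Parp12 (80.0), Dtx3l (67.5), Parp9 (41.7), Parp2 (29.3), Parp10 (24.7), Parp3 (19.6), Parp1 (18.6), Parp8 (15.7) and Parp11 (15.0). Parp14 was above Parp12, Dtx3l above Parp9, and Parp10 above Parp3 in all 5 libraries, and the other neighbors overlapped. Parp11 remained last in MAMs although its FPKM went from 3.02 ± 0.540 to 15.0 ± 1.15 (SD, n = 5 each).

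Parp8, a mono-ADP-ribosyltransferase with little known of its role, moved in the opposite direction to the interferon-linked class. It was at 57.5, 71.5, 63.6, 47.7 and 84.4 CPM in MAMs. In RAMs it was at 115, 114, 107, 121 and 78.0 CPM. MAM replicate 5 was above RAM replicate 5, the lowest RAM library, so the groups overlapped in this pair of libraries. By a rule given further below, RAM replicate 5 stood apart from the other RAMs on the log2 scale but not on the CPM scale. The log2 fold change was -0.72 (95% interval -1.05 to -0.40, adjusted p = 8.1e-04, edgeR), or 0.605 of the RAM level. Over replicates 4 and 5 alone it was -0.60 and did not pass the threshold (adjusted p = 0.152, edgeR).

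Of 7 other ADP-ribosyltransferase genes, 3 were called higher in MAMs, 3 lower and 1 not, beside 28.9% and 27.3% of all genes. They had a median log2 fold change of 0.32. Zc3hav1, the antiviral RNA-binding member also called ZAP or PARP13, rose from 187 to 437 CPM (log2 fold change 1.22, adjusted p = 3.7e-10, edgeR). It is the only one of these 7 genes that was called higher by more than 2-fold. Parp16, which sits in the endoplasmic reticulum membrane, fell from 17.4 to 4.16 CPM (log2 fold change -2.06, standard error 0.387, adjusted p = 3.3e-04, edgeR). Parp4, found in vault particles, fell from 175 to 109 CPM (log2 fold change -0.68, adjusted p = 5.9e-06, edgeR). The paired tankyrases Tnks (0.60, adjusted p = 2.5e-04) and Tnks2 (-0.53, adjusted p = 7.1e-05), named after their values were seen, changed in opposite directions in the same edgeR test.

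**Figure D4:**
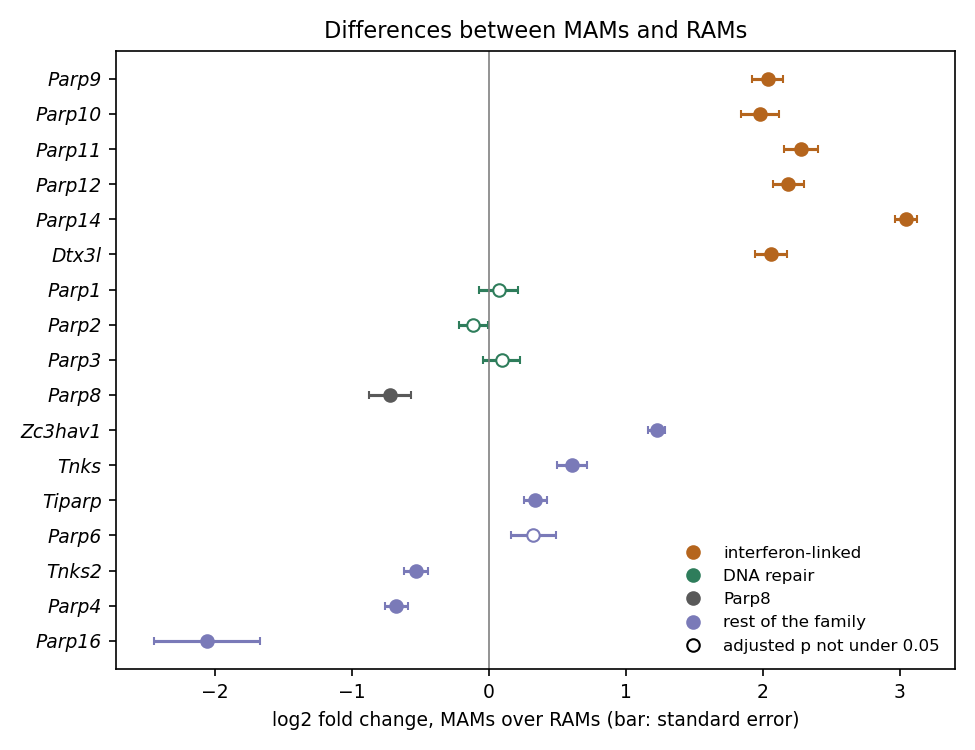
Log2 fold change of MAMs over RAMs (horizontal axis, bar: standard error) for the 10 genes and the 7 other ADP-ribosyltransferase genes, with open points where the adjusted p was not under 0.05. The 6 interferon-linked genes lie between 1.98 and 3.04, Parp1 to Parp3 around 0, and the rest of the family between -2.06 and 1.22.

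A list of genes that read or remove ADP-ribose, together with Hpf1, had 10 genes tested. Of these, 2 were higher, 2 lower and 6 did not pass, beside 28.9% of all genes higher and 27.3% lower. They had a median log2 fold change of -0.085. Trpm2, a calcium channel opened by free ADP-ribose, rose from 4.13 to 57.2 CPM (log2 fold change 3.80, standard error 0.310, adjusted p = 5.5e-08, edgeR). The macrodomain hydrolases Macrod2 and Macrod1 were low throughout, at 7.63 and 5.31 CPM in RAMs and 0.837 and 1.55 CPM in MAMs, with log2 fold changes of -3.19 (adjusted p = 9.3e-05) and -1.77 (adjusted p = 0.0050) in the same edgeR test. Parg, the chain-degrading glycohydrolase, and Hpf1, the accessory factor of PARP1 and PARP2, were named after their values were seen. They did not pass the test at -0.083 (adjusted p = 0.624, edgeR) and 0.20 (adjusted p = 0.229, edgeR).

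Of 17 tested genes of NAD supply and use, 5 were called higher and 3 lower in MAMs, and 9 were not called. Of all genes, 28.9% were called higher and 27.3% lower. The median was -0.17. Cd38, an NAD-consuming ectoenzyme, rose from 1.34 to 99.3 CPM (log2 fold change 6.19, standard error 0.239, adjusted p = 9.2e-12, edgeR). Kynu, the kynureninase of NAD synthesis from tryptophan, fell from 161 to 5.16 CPM (log2 fold change -4.96, standard error 0.295, adjusted p = 1.4e-09, edgeR). Kmo, which acts 1 step earlier in that route, was at 3.48 CPM in MAMs and 0.793 in RAMs (log2 fold change 2.13, standard error 0.745, adjusted p = 0.0242, edgeR), and its libraries overlapped.

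Of 17 tested repair genes that work with PARP1 at single-strand breaks, 7 were lower in MAMs, 9 did not pass and 1, Polb, was higher, where 27.3% of all genes were lower and 28.9% higher. The median log2 fold change was -0.55. The largest were Ung, a uracil-DNA glycosylase (-2.55, adjusted p = 6.7e-04, edgeR), Mbd4, a thymine-DNA glycosylase (-1.85, adjusted p = 2.1e-05, edgeR), and Aplf, which binds poly-ADP-ribose chains (-1.34, adjusted p = 0.00178, edgeR). The list shares members with DNA replication, such as Lig1 and Pcna. Beside it, 5 markers of proliferating cells, led by Mki67, had sums of 136 to 183 CPM in MAMs against 815 to 1072 CPM in RAMs. Their part in the levels of the repair genes was not tested. Parp1 to Parp3 did not pass the test in the same libraries.

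Among the 3 other Deltex ligases tested, Dtx2 was higher in MAMs (log2 fold change 1.71, adjusted p = 1.6e-05, edgeR). Dtx3 (-1.37, adjusted p = 0.00177, edgeR) and Dtx4 (-0.94, adjusted p = 2.2e-05, edgeR) were lower, beside 28.9% of all genes higher and 27.3% lower. Dtx1 was not among the genes tested. Of 9 genes of interferon signaling and its transcription factors, 8 were higher and 1 lower in MAMs, beside 28.9% and 27.3% of all genes. Their median log2 fold change was 2.10. The list was chosen with the higher level of interferon genes in these libraries known. Irf7 (5.81), Stat2 (2.76) and Irf1 (2.36), which encode transcription factors of the response, had the largest log2 fold changes.

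**Figure D5:**
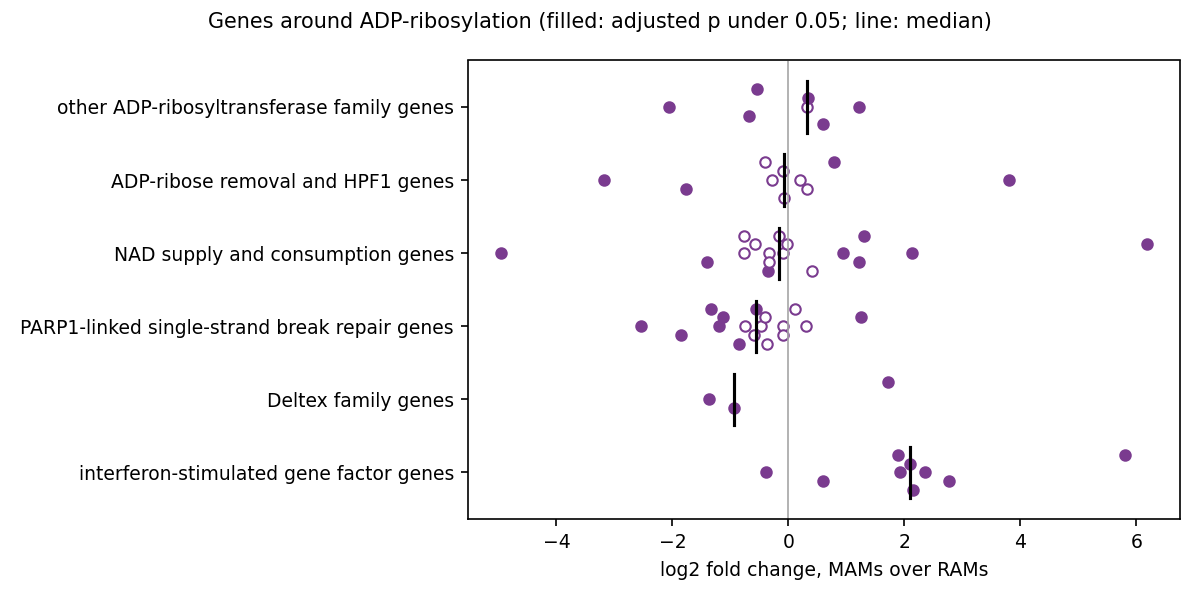
Log2 fold change of MAMs over RAMs (horizontal axis) of the genes in 6 lists around ADP-ribosylation, filled where the adjusted p was under 0.05, with a line at each list's median. The interferon signaling list has its median at 2.10, and the medians of the other lists lie between -0.94 and 0.32.

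Genes with the pattern closest to Parp14 and to Parp1 were found from the root mean square difference of log2 CPM, each gene centered on its own mean, over the 10 libraries. For Parp14 they were Cd300ld (0.113), an activating myeloid receptor, Ms4a6d (0.150) and Itsn1 (0.151), with log2 fold changes of 3.16, 2.86 and 2.94. For Parp1 they were Zbtb11 (0.119), Dclre1a (0.124) and Rbbp6 (0.126), with log2 fold changes of 0.084, 0.061 and 0.060. This is a description of these libraries and says nothing of shared control.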

How the data were processed

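RNA-seq was made from 5 MAM and 5 RAM samples, grouped by their titles. The authors aligned reads to GRCm38 with Tophat (2.0.13), deposited counts of uniquely mapped reads per gene from htseq-count (HTSeq 0.6.1, UCSC RefGene models) and deposited FPKM values per gene from Cufflinks (2.2.1). Lines naming no gene, 56.5% ± 1.65 of the total in MAMs and 63.2% ± 0.898 in RAMs (SD, n = 5 each), were left out. Reads carry no molecular identifiers, so depth (at least 50746305 counts per library) bears on counting error only.

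The tested set was the 11571 genes that had 1 FPKM or more on average in MAMs or in RAMs and were not at 0 counts throughout. They were tested with edgeR's quasi-likelihood test (edgeR 4.0.16, R 4.3.3), TMM normalization and Benjamini-Hochberg adjustment. A gene was called at an adjusted p under 0.05. Standard errors were taken as the log2 fold change over the root of the F statistic. Gene ratios were tested with exact permutation tests, whose intervals hold the shifts that the test does not refuse. Per the study's methods a sample was 1 mouse or a pool of metastases, and p-values measure the spread between these samples. The edgeR, DESeq2 and limma fits, not the permutation tests, were run on simulated data, where large changes were recovered more completely than small ones. The study named DESeq2 for its own tests, and DESeq2 (1.42.0), limma (3.58.1) on log2(FPKM + 1) and log2(FPKM + 0.1), other scalings and filters, a replicate block and each library left out were alternatives.

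The members, the lists and the tests were chosen with earlier results of these data known. The text names all members, the 3 called genes with the largest change of each list, the most abundant marker of lists for other cell types and the 3 nearest patterns of Parp14 and Parp1. Positions came from GENCODE M21 (GRCm38), promoters from RefSeq. Protein sequences were not used here. Figures were drawn with matplotlib 3.10.9.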

Additional observations from a re-analysis of the deposited data

Results flagged for a closer look

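RAM replicate 5 was far from the other RAM libraries for Parp8 on the log2 scale, at a log2 CPM of 6.29 against 6.75 to 6.92 in the others. Its gap to the nearest of them was 0.724 of the range of the 5 RAM libraries, where the critical value is 0.71. On the CPM scale the same share was 0.679, below that value. The log2 scale was added after seeing the data. Of the 46 groups of 5 values examined, this was the 1 that passed. By chance alone about 1 in 20 such groups pass, so 1 pass among 46 is no more than chance gives. Without RAM replicate 5 the log2 fold change of Parp8 was -0.82 (adjusted p = 1.9e-04, edgeR).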

How the results depend on the processing

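All 126 alternative values for the 6 interferon-linked genes kept their direction and their call, with log2 fold changes between 1.75 and 3.08 over 21 alternatives. The 6 genes were called higher in every one of these, and Parp8 was the 1 member called lower, except that under upper-quartile scaling Parp2 was called too (2 members) and that over replicates 4 and 5 alone there were 0. Parp1 changed sign under upper-quartile scaling (-0.093), over replicates 1 to 3 (-0.22) and without MAM replicate 4 (range with a library left out -0.074 to 0.16), and Parp3 under upper-quartile scaling (-0.077) and over replicates 1 to 3 (-0.095), none of these passing the threshold. The difference between the class medians moved to 2.40 over replicates 1 to 3 and to 1.56 over replicates 4 and 5, and the single-strand break repair list had 4 genes called over replicates 4 and 5 against 8, where 4159 of all genes were called against 6504. The divisions by replicate number 1 to 3 and 4 to 5 were chosen after seeing the data, rest on fewer samples, and no label names a batch. The ratio of Dtx3l to Parp9 ran from -0.025 to 0.082 with a library left out. The response element core was in 0 members on the strand of the gene alone. Other causes of these changes were not tested.

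Same-numbered libraries of the groups share only a number. The correlation of their deviations from the group means lay between -0.037 and 0.029. With the replicate number as a block, 6305 genes were called in place of 6504, and no call of a member changed. For the paired test of Parp14 to Parp9 the difference stayed at 1.01 with p = 0.0625, the smallest that an exact sign-flip test over 5 pairs can give, so its side of the threshold follows from the design.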
